A study of Sus scrofa with 2 samples.

Results

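Macrophages of the newborn pig olfactory mucosa were described from single-nucleus RNA sequencing of 1 CFTR knockout and 1 wild type library. They were selected on measured values: a nucleus counted as a macrophage when it had 500 or more detected genes, a unique molecular identifier (UMI, which marks a captured transcript so that it is counted once) of at least 3 different genes among CSF1R, CD163, MRC1, MSR1, F13A1, CD86, C1QA, C1QB, AIF1 and CD68, and UMIs of fewer than 3 different genes among the endothelial genes PECAM1, VWF, CDH5, FLT1, PTPRB and TEK. The rule found 129 nuclei among 9834 with 500 or more genes and 10769 in all. Of these, 59 came from the knockout library and 70 from the wild type library. The levels of the 16 rule genes in these nuclei are therefore a description, and so is every comparison of these nuclei with the rest.

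The tissue was olfactory neuroepithelium, the part of the nasal lining that carries the olfactory sensory neurons. The knockout library came from a newborn piglet without functional CFTR, the chloride and bicarbonate channel that is lost in cystic fibrosis, and the wild type library from a newborn control. The labels name no other allele, no treatment and no sex, and they do not say whether tissue of more than 1 piglet went into a library. With 1 library per genotype no difference was tested, and every difference below compares these libraries, not the genotypes. Intervals are 95% intervals that cover counting error only.

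Macrophages are long-lived phagocytes of the tissue that take up dead cells, debris and microbes, and in the olfactory mucosa they clear neurons that are lost in the normal turnover of the epithelium. CSF1R, the receptor for CSF1 and IL34, keeps them alive. CD163 takes up haemoglobin bound to haptoglobin, MRC1 is the mannose receptor, MSR1 a scavenger receptor for modified lipoproteins, and C1QA and C1QB encode chains of complement C1q, which tags debris for uptake. No gene or protein sequence is shown.

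There were 6054 knockout barcodes with 16623086 UMIs in all (median 2138 per barcode) and 4715 wild type barcodes with 18731495 UMIs (median 3032). The libraries shared 8 barcode sequences, and none of these belonged to a macrophage. The macrophages had a median of 1755 UMIs (620 to 17153) in the knockout library and of 3138 UMIs (796 to 99236) in the wild type library. One wild type nucleus held 21.3% of the wild type macrophage UMIs, and the deepest knockout nucleus 10.1% of the knockout ones. CFTR itself had 1 UMI in the knockout macrophages (5.91 CPM, UMIs of a gene per 1000000 summed UMIs, interval 0.150 to 32.9) and 6 UMIs in the wild type macrophages (12.9 CPM, 4.72 to 28.0), beside 12.9 CPM in the other knockout nuclei and 89.0 CPM in the other wild type nuclei.

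Most of the selected nuclei sat in 1 cluster when all nuclei were clustered without the rule genes. That cluster, called macrophage-like here, held 43 of the 59 knockout macrophages (72.9%, exact Clopper-Pearson interval 59.7 to 83.6) and 44 of the 70 wild type macrophages (62.9%, 50.5 to 74.1). Its leading genes over the median of the other clusters were CD163, ZEB2, ARHGAP15, MRC1, MSR1, MARCHF1, SAMSN1, APBB1IP, CR2 and PRKCB. ZEB2 is a transcription factor of macrophage identity, and ARHGAP15 and APBB1IP act on the cytoskeleton of blood-derived cells. In the cluster 43 of 43 knockout macrophages and 40 of 44 wild type macrophages had CD163.

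The macrophages outside the cluster were deeper. They numbered 16 in the knockout library, with a median of 5306 UMIs, and 26 in the wild type library, with a median of 7964 UMIs. They carried 53.6% of knockout and 76.0% of wild type macrophage UMIs. Of the 26 wild type nuclei, 19 fell in a cluster whose leading named genes were THSD7B, FSTL5 and CNTN4 and whose 138 knockout and 271 wild type nuclei had a median doublet score of 0.182. The median score of macrophages in the macrophage-like cluster was 0.0350 in the knockout, against 0.0374 in the wild type library, and outside it 0.0655 in the knockout, against 0.141 in the wild type library. A doublet is a droplet with more than 1 nucleus, and its part in the values of these deep nuclei was not tested.

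**Figure D1:**
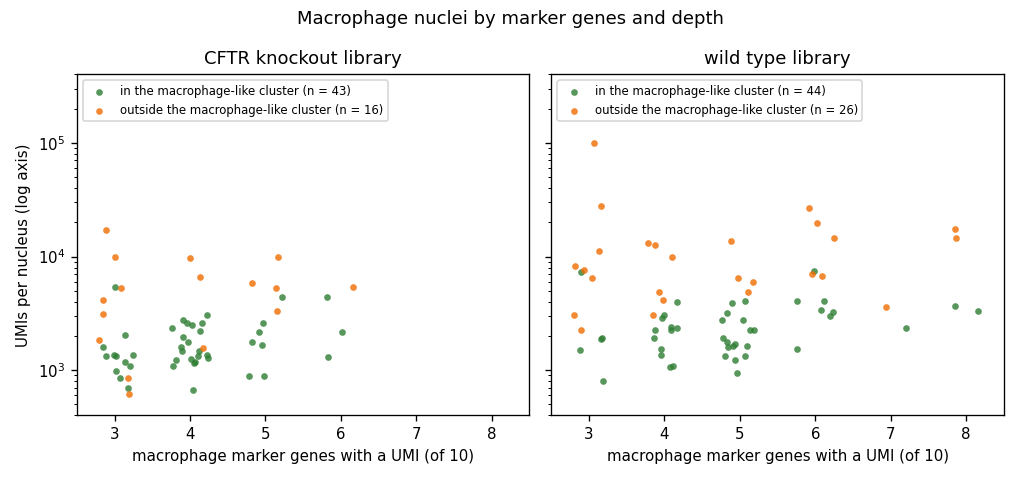
Each point is a macrophage nucleus, placed by the number of the 10 macrophage marker genes with a UMI (horizontal, points spread sideways for clarity) and by its UMIs on a log axis (vertical), for the knockout library (left) and the wild type library (right). Nuclei outside the macrophage-like cluster lie mostly above those inside it, up to 17153 UMIs in the knockout, against 99236 UMIs in the wild type library.

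The same nuclei carried genes of other cell types. UMIs of 3 or more genes of the list for mature olfactory neurons were found in 8 of 59 knockout and 24 of 70 wild type macrophages, but in 2 of 43 and 3 of 44 of those in the cluster. For immature neurons the numbers were 10 of 59 knockout and 27 of 70 wild type macrophages, against 4 of 43 and 4 of 44 in the cluster. Sustentacular genes, those of the epithelial support cells, stood at 7 of 59 knockout and 16 of 70 wild type macrophages. Genes of respiratory secretory cells were the exception, with 30 of 59 knockout and 7 of 70 wild type macrophages, and 20 of 43 knockout and 2 of 44 wild type macrophages within the cluster. Most knockout to wild type values of single genes below are therefore those of the 87 macrophages in the cluster, a choice made after the data were seen. Of 93 named genes measured in both sets, 26 had the opposite sign over all macrophages, and some of those values are given below.

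**Figure D2:**
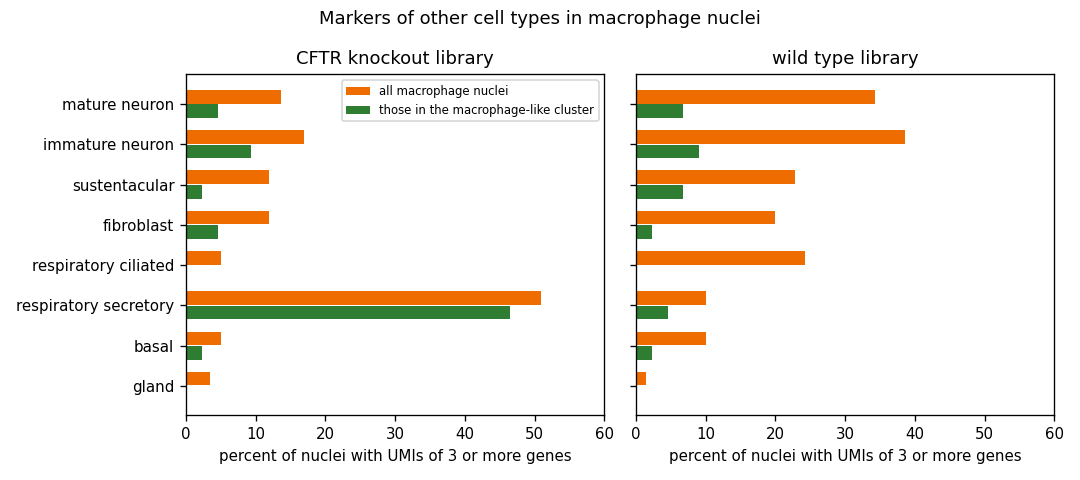
Bars give the percent of macrophage nuclei with UMIs of 3 or more genes of each list of another cell type, in the knockout library (left) and the wild type library (right), for all macrophages and for those in the macrophage-like cluster. Neuronal genes are frequent in all wild type macrophages (34.3% for mature neurons) and rare in the cluster, while secretory genes stay frequent in the knockout cluster (46.5%).

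The edge of the rule is set by counting genes. With exactly 3 marker genes, just inside, there were 20 knockout nuclei, of which 12 lay in the macrophage-like cluster, and 13 wild type nuclei, of which 5 did. With exactly 2, just outside, there were 58 knockout nuclei with 11 in the cluster and 36 wild type nuclei with 5 in the cluster. Inside the edge 16 of 20 knockout nuclei and 10 of 13 wild type nuclei had CD163, and outside it 21 of 58 knockout nuclei and 14 of 36 wild type nuclei. The cluster also held 40 knockout and 18 wild type nuclei that the rule did not take.

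The label was set beside genes the rule did not use, as a description. Of 32 listed genes of macrophages and other myeloid cells, 27 were in the tables and 19 reached 20 UMIs. Of these 19, 17 were at least 2 log2 units above the other nuclei in both libraries, beside 3.28% of 6580 genes outside the rule. The 20 UMIs were counted in the macrophages alone, so listed genes that were low there were left out of this count. The list was chosen with earlier results of these data known. The 27 genes together stood at 5391 CPM in knockout and 3039 CPM in wild type macrophages, and 374 CPM in other knockout and 301 CPM in other wild type nuclei. In the macrophages of the cluster they stood at 9205 CPM in the knockout and 8402 CPM in the wild type library. PTPRC (CD45, the phosphatase on all leukocytes) stood 5.07 log2 units above the other nuclei in the knockout, against 5.34 in the wild type library. SPI1, the transcription factor PU.1 that sets myeloid fate, stood 5.14 units above them in the knockout, against 4.17 in the wild type library. In the cluster none of the 18 measured identity genes was past 1 in either direction between the libraries, and their median log2 ratio (knockout over wild type, here and below) was 0.01. Of all genes measured in the cluster, 9.36% were at 1 or more and 9.81% at -1 or less. LCP1, an actin-bundling protein of leukocytes, was at the upper end with 79 knockout and 61 wild type UMIs (0.89, 0.39 to 1.39), and PTPRC stood at -0.76 (-1.38 to -0.16), beside 0.03 over all macrophages. The median macrophage had UMIs of 6 identity genes in the knockout, against 9 in the wild type library. Median depth was 1755 UMIs in the knockout and 3138 UMIs in the wild type macrophages.

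Among genes of other leukocytes, many were at 0 and a few were not. The B cell genes PAX5, CD79A, CD79B, MS4A1 and BLK and the T cell genes CD3E, LCK, CD5 and THEMIS had no UMI in any macrophage. The dendritic cell genes XCR1, CD207, FCER1A, CD1E and IRF4 had none either. At least 2 log2 units above the other nuclei in both libraries were FLT3, a dendritic cell receptor (11 UMIs in 6 knockout nuclei, 12 UMIs in 5 wild type nuclei), TGM3 of the neutrophil list (9 UMIs in 4 knockout nuclei, 33 UMIs in 4 wild type nuclei) and MS4A2 of the mast cell list (14 UMIs in 7 knockout nuclei, 10 UMIs in 7 wild type nuclei). The T cell list summed to 130 CPM in knockout and 193 CPM in wild type macrophages, below the 188 CPM of other knockout and 256 CPM of other wild type nuclei. The B cell list summed to 154 CPM in knockout and 375 CPM in wild type macrophages, beside 303 CPM in other knockout and 338 CPM in other wild type nuclei. The neutrophil list stood at 106 CPM in knockout and 85.7 CPM in wild type macrophages (13.3 CPM in other knockout, 13.4 CPM in other wild type nuclei), and the mast cell list at 106 CPM and 152 CPM in those macrophages (60.5 CPM in other knockout, 67.3 CPM in other wild type nuclei). The monocyte list stood at 378 CPM in knockout and 383 CPM in wild type macrophages, beside 244 CPM in other knockout and 246 CPM in other wild type nuclei. The list for osteoclasts, the bone-resorbing relatives of macrophages, summed to 254 CPM in knockout and 448 CPM in wild type macrophages, beside 93.1 CPM in other knockout and 114 CPM in other wild type nuclei. TNFRSF11A gave 18 of the list's 43 UMIs in knockout macrophages, against 107 of its 209 UMIs in wild type macrophages, while OCSTAMP and ATP6V0D2 were at 0. The part of other leukocytes in the values below was not tested.

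CD163 was the most abundant rule gene in both libraries. It had 966 UMIs in 53 of 59 knockout macrophages (5711 CPM, 5356 to 6082) and 1170 UMIs in 63 of 70 wild type macrophages (2506 CPM, 2364 to 2654), with 21.4 CPM in other knockout and 6.45 CPM in other wild type nuclei. MRC1 followed with 1165 CPM (1008 to 1339) in knockout and 1004 CPM (916 to 1100) in wild type macrophages, and MSR1 with 698 CPM in knockout and 503 CPM in wild type macrophages. F13A1, coagulation factor XIII A chain, had 95 UMIs in 26 knockout nuclei and 54 UMIs in 18 wild type nuclei. The least frequent rule genes were AIF1, with 10 knockout and 8 wild type UMIs, and CD68, a lysosomal membrane protein, with 5 knockout and 10 wild type UMIs. CD163 and MRC1 were found together in 40 of 59 knockout and 51 of 70 wild type macrophages.

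In the cluster the rule genes did not keep 1 common ratio between the libraries. These genes chose the nuclei, whose median depth was 1468 UMIs in the knockout and 2265 UMIs in the wild type library. Their ratios are therefore a description, and the part of the selection in them was not tested. CD163 stood at 10340 CPM in knockout and 6830 CPM in wild type macrophages, a log2 ratio of 0.60 (0.45 to 0.74). Its median was 17 UMIs per nucleus in both libraries. F13A1 was also higher in the knockout, with a log2 ratio of 0.90 (0.32 to 1.48). MRC1 (1963 CPM in knockout, 2866 CPM in wild type) and MSR1 (1071 CPM in knockout, 1536 CPM in wild type) were lower, with log2 ratios of -0.55 (-0.83 to -0.26) and -0.52 (-0.91 to -0.14). CSF1R did not differ beyond counting error (-0.07, -0.96 to 0.79). C1QA had 6 knockout and 26 wild type UMIs, a log2 ratio of -1.60 (-3.17 to -0.29), while C1QB had 24 and 43 UMIs in those libraries (-0.33, -1.11 to 0.43). CD86, a costimulatory ligand for T cells, had 10 knockout and 39 wild type UMIs (-1.45, -2.62 to -0.42). In the other nuclei CD163 had a log2 ratio of 1.73 and F13A1 of 2.33. Over all macrophages MRC1 stood at 0.21 and MSR1 at 0.47, the opposite sign of their values in the cluster, as were C1QB at 0.24 and CSF1R at 0.44, and C1QA and CD86 stood at -0.61 and -0.27.

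Beyond the rule genes, 216 of the 6580 genes with 20 or more UMIs (3.28%) were at least 2 log2 units above the other nuclei in both libraries. All but 3 of them, 213, also were so in the macrophages of the cluster. Those 87 nuclei are part of the same 129 and were set against the same other nuclei, so this overlap is no separate support. Of the 216 genes, 184 carry a symbol. Ranked by the lower of the values in the 2 libraries, the first was VSIG4, a complement receptor of resident macrophages, at 7.66 log2 units in the knockout, against 7.98 in the wild type library. MS4A7, a membrane protein of macrophages, followed with 7.71 in the knockout, against 7.55 in the wild type library. CR2, the receptor for complement C3d that is known from B cells and follicular dendritic cells, stood at 7.55 in the knockout, against 7.54 in the wild type library. TFEC, a transcription factor of the MITF family, stood at 7.03 and 7.07 in those libraries.

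The other genes among the 20 highest fell into recognisable functions. Sensors of microbes and danger included NLRP3, the inflammasome sensor (7.76 in the knockout, 6.35 in the wild type), and TLR2, a receptor for bacterial lipoproteins (5.47 in the knockout, 5.49 in the wild type). SLC11A1 (NRAMP1), which pumps metal ions out of the phagosome, stood at 7.25 in the knockout, against 6.18 in the wild type library. Signalling genes of leukocytes included PIK3CG, RGS1, SAMSN1, BIN2, ARHGAP15, NCKAP1L, PLEK and SLA. GPR34 and C5AR1, receptors for lysophosphatidylserine and complement C5a, and the interferon regulatory factor IRF5 also belonged to the group. CCL11, the eotaxin chemokine, rested on 4 knockout and 6 wild type nuclei, with 11 of 27 wild type UMIs in 1 nucleus. GIMAP4 completed the 20.

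**Figure D3:**
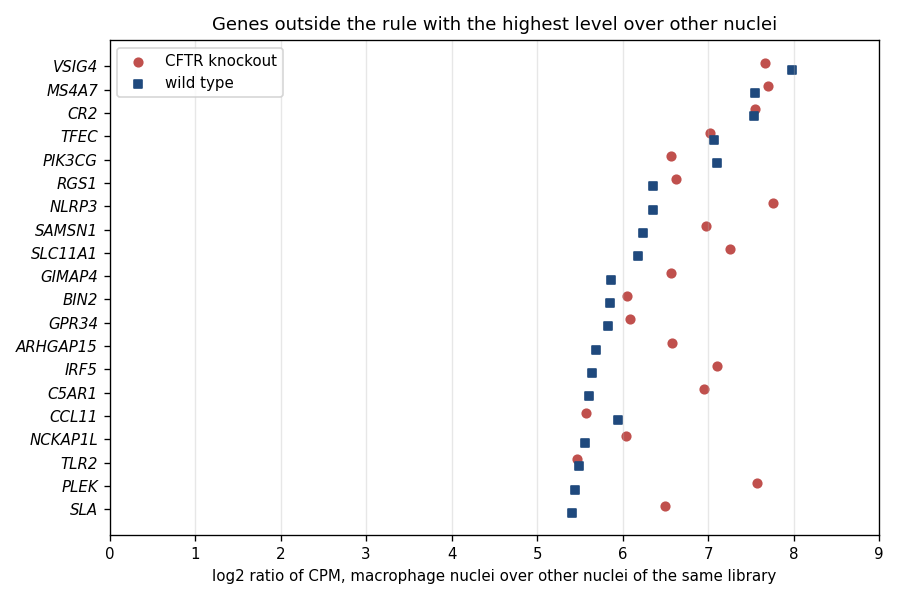
For the 20 genes outside the rule with the highest level over other nuclei, the log2 ratio of CPM in macrophages over the other nuclei of the same library is shown for the knockout library (circles) and the wild type library (squares). All 20 lie above 5 in both libraries, led by VSIG4, MS4A7 and CR2.

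Macrophages made up a small share of both libraries. They were 1.11% of knockout nuclei (59 of 5305, 0.848 to 1.43) and 1.55% of wild type nuclei (70 of 4529, 1.21 to 1.95), a log2 ratio of -0.47 (-0.9997 to 0.05). After every nucleus was thinned to 1000 UMIs the rule took 0.702% of knockout nuclei (33 of 4704) and 0.995% of wild type nuclei (43 of 4320), a log2 ratio of -0.50 (-1.205 to 0.18). Counted in the cluster alone they were 0.811% of knockout and 0.972% of wild type nuclei (-0.26, -0.90 to 0.38). The difference was within counting error in these 3 counts, but not under some other choices. With 4 or more marker genes there were 39 knockout and 57 wild type macrophages, a log2 ratio of -0.78 (-1.40 to -0.16). Among nuclei with 1000 or more detected genes there were 38 and 63 in those libraries (-0.81, -1.43 to -0.21), and with 200 or more 61 and 70 (-0.56, -1.08 to -0.04). Without nuclei that carried 3 or more genes of another type there were 20 and 31 (-0.86, -1.75 to -0.0035). With the whole cluster in place of the rule the sign turned (0.19, -0.30 to 0.69).

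Over all macrophages, 693 of 6589 genes with 20 or more UMIs (10.5%) had a log2 ratio of 1 or more, and 873 (13.2%) of -1 or less. Many genes at the ends of this ranking were concentrated in 1 nucleus or nearly absent from the cluster. Of the 12 highest, PHEX, a gene of bone-forming cells, had 49 knockout UMIs, 44 of them in 1 nucleus, and none in wild type. ANKFN1 rested on 1 knockout and 1 wild type nucleus, and NWD2, IDO2, TMEM45B and LBP had 11 or more of their knockout UMIs in 1 nucleus. BPIFA1, TMEM212, CYP2B6, TFCP2L1 and ADAMTS2 were also among the 12. Their log2 ratios in the other nuclei were 4.35, 3.95, 1.47, 1.08 and 0.16. ADAMTS2 had 15 of its 19 knockout UMIs in the cluster, in 8 nuclei with at most 4 in 1 nucleus, and no wild type UMI there. Of the 12 lowest, CACNA1B, a neuronal calcium channel, had 1 knockout and 132 wild type UMIs, and none of those 132 lay in the cluster. PURG had 6 knockout and 572 wild type UMIs, of which 103 were in 1 nucleus and 1 in the cluster. EBF4, TEX15, FMN2, CADPS, ADAMTS19, ADAMTSL1, GPC6, BACH2 and CLSTN2 were alike, with 0 to 2 wild type UMIs in the cluster each.

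Once the ratio in the other nuclei was subtracted, the highest genes still rested largely on single nuclei. SLC39A8, ANO5, SLC16A9, DGKI and MAGI2 were the highest with COL1A1, and 1 knockout nucleus held 49 of 54, 50 of 57, 42 of 49, 30 of 43 and 45 of 61 of their UMIs. COL1A1, a fibroblast collagen, had 27 of its 44 knockout UMIs in 1 nucleus. The lowest were CACNA1B, EBF4, FMN2, CADPS, ZNF423 and GPC6, which had at most 2 wild type UMIs in the cluster each.

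Within the cluster, 2457 genes had 20 or more UMIs; 230 (9.36%) had a log2 ratio of 1 or more and 241 (9.81%) of -1 or less. The counting interval left out 0 for 169 of the 230 and 178 of the 241. Of the genes that are typical of macrophages in both libraries, 180 were measured here; 37 (20.6%) were at -1 or less and 8 (4.44%) at 1 or more, and their median log2 ratio was -0.29, beside -0.03 for all 2457 genes. Over all macrophages the 216 genes of this class had a median of 0.50. Of these, 47 were at 1 or more and 15 at -1 or less. Of all genes measured over all macrophages, 10.5% were at 1 or more and 13.2% at -1 or less. The direction of this class therefore depends on whether the deep nuclei outside the cluster are counted.

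Of the scavenger and clearance genes, 2 of 10 measured in the cluster were at -1 or less, beside 9.81% of all genes there. COLEC12, a scavenger receptor of the collectin family, had 34 UMIs in 14 of 43 knockout nuclei (433 CPM) and 243 UMIs in 33 of 44 wild type nuclei (2170 CPM), a log2 ratio of -2.32 (-2.89 to -1.80), beside -0.55 in the other nuclei. At 1000 UMIs per nucleus it was detected in 32.4% of 37 knockout macrophages of the cluster (18.01 to 49.8) and in 61.9% of 42 wild type ones (45.6 to 76.4), and in 4.77% of other knockout and 5.88% of other wild type nuclei. MERTK, the receptor tyrosine kinase that triggers uptake of dying cells, had 28 knockout and 104 wild type UMIs in the cluster (-1.38, -2.04 to -0.77), beside 0.03 in the other nuclei. COLEC12 and MERTK were these 2, no gene of the list was at 1 or more, and the list's median was -0.20. The scavenger receptor CD163, a rule gene, was higher in the knockout. STAB1 (-0.12, -1.06 to 0.78) and ELMO1 (-0.54, -0.88 to -0.20) were closer to 0. Over all macrophages COLEC12 stood at -1.46 and MERTK at -0.45, and STAB1 and ELMO1 at 0.40 and 0.41.

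A further 4 genes of the cell surface, chosen after their values were seen, were also lower in the cluster. CD200R1, the inhibitory receptor for CD200, had 9 UMIs in 6 knockout nuclei (115 CPM) and 74 UMIs in 27 wild type nuclei (661 CPM) of the cluster, a log2 ratio of -2.53 (-3.71 to -1.52), beside -0.04 in the other nuclei. P2RY12, the ADP receptor known from microglia, had 29 knockout and 122 wild type UMIs (-1.56, -2.20 to -0.96). It was detected in 24.3% of knockout and 54.8% of wild type macrophages at 1000 UMIs, and in 10.9% of other knockout and 14.0% of other wild type nuclei. KCNK13, a potassium channel that is open at rest, had 10 knockout and 71 wild type UMIs (-2.31, -3.44 to -1.35). TNFRSF11A (RANK), the receptor for the osteoclast factor RANKL, had 13 knockout and 83 wild type UMIs (-2.16, -3.13 to -1.31), beside 0.02 in the other nuclei. Each of these 4 genes was found in 14 or fewer of 43 knockout and in 24 or more of 44 wild type macrophages. Over all macrophages their log2 ratios were -1.36 for CD200R1, -1.002 for P2RY12, -1.17 for KCNK13 and -1.11 for TNFRSF11A.

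**Figure D4:**
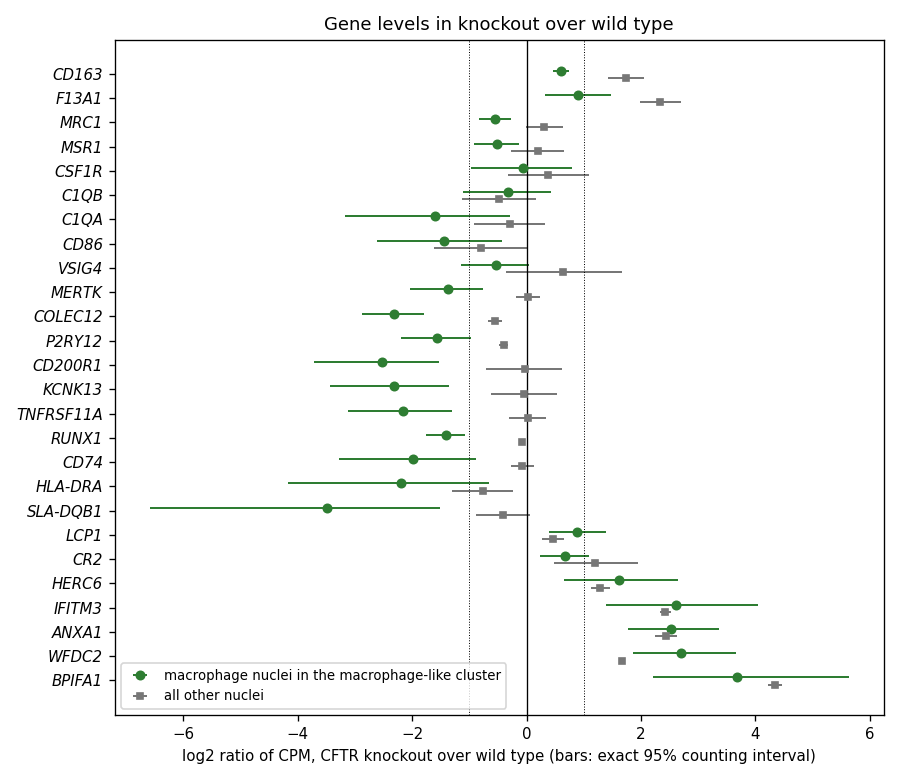
Points give the log2 ratio of CPM, knockout over wild type, in macrophages of the macrophage-like cluster (circles) and in all other nuclei (squares) for 26 genes named in the text, with exact 95% counting intervals; dotted lines mark -1 and 1. COLEC12, CD200R1, KCNK13 and TNFRSF11A lie below -2 in macrophages and between -0.55 and 0.02 in the other nuclei, while IFITM3 and ANXA1 lie above 2 in both.

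Genes of class II antigen presentation, by which peptides are shown to helper T cells, included 3 that were lower too. CD74, the invariant chain, had 8 UMIs in 4 knockout nuclei and 45 UMIs in 16 wild type nuclei of the cluster (-1.98, -3.27 to -0.88). SLA-DQB1 had 2 knockout and 32 wild type UMIs (-3.49, -6.59 to -1.51), and HLA-DRA, under the symbol given to this pig gene, 4 knockout and 26 wild type UMIs (-2.19, -4.17 to -0.66). The wild type UMIs were not evenly spread, with 11 of the 26 HLA-DRA UMIs in 1 nucleus. CTSS (-0.55, -1.20 to 0.07), CD80 (-0.39, -1.17 to 0.35) and LGMN (0.05, -0.77 to 0.86) did not differ beyond counting error, and over all macrophages CTSS and CD80 stood at 0.48 and 0.72. Thus 3 of 6 measured genes of the list were at -1 or less, beside 9.81% of all genes in the cluster. None was at 1 or more, beside 9.36% of all genes there. The list median was -1.26 in the cluster, -0.32 over all macrophages and 0.04 in the other nuclei. Class II and closely related genes are paralogs, and the sources used here do not say how reads shared between them were counted.

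Of the transcription factors, a few were lower and most were near 0 or above it. RUNX1 had 95 knockout and 360 wild type UMIs in the cluster (-1.41, -1.75 to -1.08), and MITF, which drives lysosomal and osteoclast genes, 22 knockout and 99 wild type UMIs (-1.66, -2.39 to -0.98). These were the 2 of 12 factors at -1 or less, beside 9.81% of all genes in the cluster, and none was at 1 or more. MEF2A was lower by less (-0.65, -1.04 to -0.27). MAF (0.80, -0.05 to 1.66), IKZF1 (0.78, -0.14 to 1.71) and SPI1 (0.25, -0.84 to 1.32) were within counting error, and the list's median was 0.36. Over all macrophages RUNX1 stood at -0.32, with 135 of its 625 wild type UMIs in 1 nucleus, and MITF at -1.04. RBPJ, the partner of Notch, had 118 knockout and 549 wild type UMIs, with 109 of the wild type ones in 1 nucleus (-1.70, -2.004 to -1.42).

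Receptors for microbes and inflammatory genes were mostly within counting error. NLRP3 had 44 knockout and 65 wild type UMIs in the cluster (-0.05, -0.64 to 0.53) and TLR2 25 and 44 in those libraries (-0.30, -1.07 to 0.44). TLR4, the lipopolysaccharide receptor, had 6 knockout and 22 wild type UMIs (-1.36, -2.95 to -0.01), beside 2.59 in the other nuclei, and was the 1 of 6 pattern recognition genes at -1 or less. IL18, a cytokine released by inflammasomes, had 4 knockout and 29 wild type UMIs in the cluster (-2.34, -4.31 to -0.83) with 9 of the wild type UMIs in 1 nucleus, and was the 1 of 4 inflammatory genes at -1 or less. No gene of either list was at 1 or more. Of all genes in the cluster, 9.36% were at 1 or more and 9.81% at -1 or less. The list medians were -0.58 and -0.69 in the cluster, and 0.40 and 0.17 over all macrophages, where TLR4 stood at 0.67, TLR2 at 0.34 and NLRP3 at 0.85.

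Of the interferon-induced genes 2 of 10 measured in the cluster were at 1 or more, beside 9.36% of all genes there. In the cluster IFITM3 had 30 UMIs in 24 knockout nuclei and 7 UMIs in 5 wild type nuclei (2.61, 1.40 to 4.04), and HERC6 30 knockout and 14 wild type UMIs (1.61, 0.65 to 2.64). These were the 2 genes, none of the list was at -1 or less, and the median was 0.45. MX2 was higher by less (0.75, 0.05 to 1.47). The list had a median of 0.76 over all macrophages and of 0.81 in the other nuclei for the genes measured over all macrophages. IFITM3 had the same direction in the other nuclei (2.42), where it was detected in 30.3% of knockout and 7.24% of wild type nuclei at 1000 UMIs, beside 37.8% of knockout and 7.14% of wild type macrophages in the cluster.

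Genes for iron and lysosomes differed little as groups in the cluster, while lipid genes had a lower median. HMOX1, which breaks down haem, had 41 knockout and 56 wild type UMIs in the cluster (0.06, -0.55 to 0.67). SLC40A1, the iron exporter ferroportin, had 13 knockout and 36 wild type UMIs (-0.96). ABCA1, the cholesterol exporter, was higher in the knockout (0.90, 0.24 to 1.57), while SOAT1, which stores cholesterol as esters, was lower (-1.05, -1.84 to -0.31). PPARG, a lipid-sensing nuclear receptor, was lower as well (-0.60, -1.16 to -0.06). Over all macrophages SOAT1 stood at 0.54 and PPARG at 0.14. The medians in the cluster were 0.06 for 9 iron and haem genes, -0.56 for 8 lipid genes and -0.07 for 13 lysosomal genes. The lipid list held the rule gene MSR1. Of the iron genes CP, which encodes ceruloplasmin, was at 1 or more (1.61, 0.23 to 3.15) and none at -1 or less. Of the lipid genes the tetraspanin CD9 was at 1 or more (1.08, 0.34 to 1.84), and SOAT1 was the 1 gene at -1 or less. Of the lysosomal genes 2 were at -1 or less, both within counting error, among them CTSZ (7 knockout and 20 wild type UMIs), which stood at 0.05 over all macrophages. Of all genes in the cluster, 9.36% were at 1 or more and 9.81% at -1 or less.

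Other complement genes and growth factors rested on few UMIs. VSIG4 had 38 knockout and 79 wild type UMIs in the cluster (-0.54, -1.14 to 0.03) and ITGAX, chain of a complement receptor, 24 and 37 in those libraries (-0.11, -0.92 to 0.67). None of the 5 complement genes measured in the cluster was past 1 in either direction. Of all genes there, 9.36% were at 1 or more and 9.81% at -1 or less. Over all macrophages 10 complement genes were measured, a wider set than in the cluster, and 6 of the 10 were at 1 or more, beside 10.5% of all genes. VSIG4 stood at 0.32 and ITGAX at 0.57 over all macrophages. PDGFC, a platelet-derived growth factor, had 38 UMIs in 7 knockout nuclei and 145 UMIs in 22 wild type nuclei of the cluster (-1.42, -1.97 to -0.89), with 20 of knockout and 41 of wild type UMIs in 1 nucleus of each library. It was the 1 of 3 growth factor genes measured in the cluster at -1 or less, beside 9.81% of all genes there. Another 1 of the 3 was at 1 or more (1.05), beside 9.36% of all genes, and the list's median was -0.19. No proliferation gene reached 20 UMIs in the cluster, and TOP2A had 0 knockout and 3 wild type UMIs there. TPX2 had none.

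**Figure D5:**
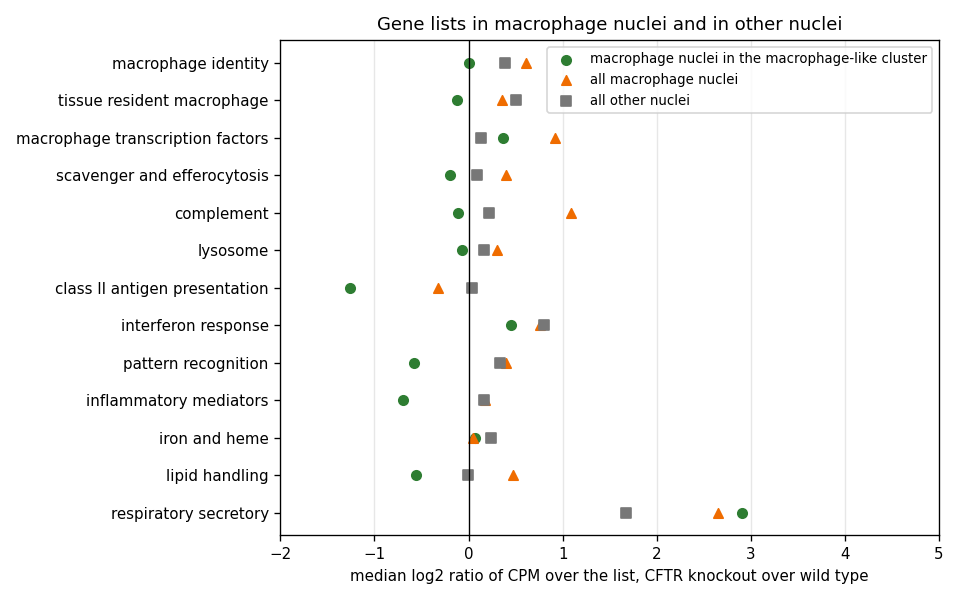
Points give the median log2 ratio of CPM, knockout over wild type, of the measured genes of each of 13 lists in macrophages of the macrophage-like cluster (circles), in all macrophages (triangles) and in all other nuclei (squares). Of these lists class II is lowest in the cluster at -1.26, the respiratory secretory list highest at 2.90, and most medians of all macrophages lie to the right of those in the cluster.

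Among the 12 highest log2 ratios within the cluster, several belong to secretory epithelium. BPIFA1, a secreted airway protein, had 36 UMIs in 24 knockout nuclei and 4 UMIs in 4 wild type nuclei (3.68, 2.20 to 5.63), TFF3 24 and 4 UMIs in those libraries, and WFDC2 64 and 14. Their ratios in the other nuclei were 4.35, 2.41 and 1.67. The secretory list summed to 1951 CPM in knockout and 312 CPM in wild type macrophages of the cluster, and to 2099 CPM in other knockout and 575 CPM in other wild type nuclei. BPIFA1 was detected in 40.5% of knockout macrophages of the cluster and in 42.2% of the other knockout nuclei at 1000 UMIs. ANXA1, an inhibitor of inflammation, had 73 knockout and 18 wild type UMIs in the cluster (2.53, 1.77 to 3.37) and a ratio of 2.44 in the other nuclei. JUN, an immediate early gene, had 17 knockout and 4 wild type UMIs (2.60, 0.99 to 4.63), beside -0.65 in the other nuclei. Over all macrophages JUN stood at 0.10 (-0.58 to 0.75). At 1000 UMIs it was detected in 10.8% of knockout and 7.14% of wild type macrophages of the cluster. TSPAN5 (23 knockout UMIs in 2 nuclei), HNRNPA1, CDC26, KIAA1211L, ALDH1A1, IFITM3 and HIVEP1 completed the 12.

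The 12 lowest within the cluster were NEDD4L, TESK2, PPFIBP2, SLA-DQB1, TCF4, NHSL1, SULF1, SAMD4A, ADAP2, SESN3, PRICKLE2 and LDLRAD3. SAMD4A had 11 UMIs in 6 knockout nuclei and 121 UMIs in 30 wild type nuclei (-2.95, -3.99 to -2.06), beside -0.25 in the other nuclei. TCF4 had 9 knockout and 120 wild type UMIs, with 44 of the wild type ones in 1 nucleus (-3.22, -4.39 to -2.25). NEDD4L rested on 1 nucleus, which held 55 of its 60 wild type UMIs. SULF1 had no knockout UMI and 34 wild type UMIs, 31 of them in 1 nucleus, and its log2 ratio was -2.99 or lower with 3 UMIs as the floor of the knockout sum.

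RNA composition also differed between the libraries. Ribosomal protein genes made up 1.95% of the UMIs in knockout and 0.876% in wild type macrophages of the cluster, and 1.60% in other knockout and 0.827% in other wild type nuclei. Of 51 measured ribosomal protein genes 32 were at 1 or more in the cluster, beside 9.36% of all genes there. None was at -1 or less, and their median was 1.18, beside 0.94 in the other nuclei. Mitochondrial transcripts stood at 8351 CPM in knockout and 8036 CPM in wild type macrophages of the cluster, and at 12558 CPM in other knockout and 27186 CPM in other wild type nuclei. The median depth of the macrophages in the cluster was 1468 UMIs in the knockout, against 2265 UMIs in the wild type library. The part of RNA composition and depth in the gene ratios above was not tested.

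Some genes marked only some of the macrophages in the cluster. CR2 was found in 19 of 43 knockout and 13 of 44 wild type nuclei, with 100 and 90 UMIs in those libraries. None of the 13 wild type nuclei with CR2 had a UMI of RGS1, which 16 of the other 31 had; in the knockout 7 of 19 nuclei with CR2 and 7 of 24 without had one. COLEC12 was found in 12 of the 13 wild type nuclei with CR2 and in 21 of the 31 without. In the knockout COLEC12 was found in 9 of 19 nuclei with CR2 and in 5 of 24 without. Class II genes (CD74, SLA-DQB1, HLA-DRA and others of their family) were found in 9 knockout and 20 wild type nuclei. CD86 was found in 13 of those 20 wild type nuclei and in 7 of the other 24, and CR2 in 1 of the 20 and in 12 of the other 24. In the knockout CD86 was found in 4 of the 9 nuclei with class II genes and in 5 of the other 34. CR2 was found there in 3 of the 9 and in 16 of the other 34. Depth differed little between these wild type nuclei, with a median of 2353 UMIs with class II genes and 2088 without. In the knockout these medians were 2026 and 1364 UMIs. LYVE1, a hyaluronan receptor of resident macrophages around vessels, was found in 8 of 43 knockout and 9 of 44 wild type nuclei and together with class II genes in 1 and 2 of these.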

How the data were processed

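Nuclei were isolated from frozen sections of olfactory neuroepithelium in citric acid buffer and captured in droplets, per the labels' protocols. The deposited tables hold raw UMI counts per gene and nucleus. Per the submitters' processing notes Cell Ranger, Seurat 4.0 and R 4.0.2 were used; the sources used here name no genome build or aligner. Of 8256 gene IDs without a symbol, 1029 were given one from gene tables. UMIs were summed over the nuclei of a set and written as CPM. Levels carry exact Poisson intervals, shares exact Clopper-Pearson intervals and ratios exact conditional binomial intervals, at 95%. Genes with fewer than 20 UMIs over both libraries were not ranked; a log2 ratio of 1 or -1, or of 2 over other nuclei, was the limit, and 3 UMIs the floor for a count of 0. A share at fixed depth used nuclei thinned to 1000 UMIs, which left out 8 knockout and 2 wild type macrophages.

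Clustering used scanpy 1.11.5 (Python 3.11.15, 2000 variable genes without the 16 rule genes, 30 components, 15 neighbours, Leiden resolution 1). Scrublet's own threshold called 5 nuclei per library, which is too few to be useful, so no doublets were removed; an alternative left out the highest scores, at 0.8% per 1000 nuclei. edgeR 4.0.16 gave TMM factors for an alternative. Ratios were checked on simulated counts with Poisson error only, which cannot show how they behave where 1 nucleus holds most UMIs. No test was run, since each genotype had 1 library.

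Named genes were the 16 rule genes, CFTR, the 20 genes highest over other nuclei, the 12 highest and 12 lowest between libraries, and the 6 at each end after the ratio in other nuclei was subtracted, plus members of the gene lists. The members and lists were chosen with earlier results of these data known. The nuclei in the macrophage-like cluster, the 12 genes at each end there, the ribosomal genes and the gene pairs were chosen after seeing the data, as were COLEC12, CD200R1, P2RY12, KCNK13, RBPJ and other genes described in the cluster outside these rules. A few genes that these rules name are not reported here.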

Additional observations from a re-analysis of the deposited data

Results flagged for a closer look

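COL1A1, the main chain of type I collagen, went opposite ways in macrophages and in the other nuclei. Its log2 ratio of knockout over wild type was 1.53 in macrophages (0.89 to 2.18), with 44 UMIs in 14 knockout nuclei and 42 UMIs in 16 wild type nuclei, and -0.62 in the other nuclei. One knockout macrophage held 27 of the 44 UMIs and one wild type macrophage 14 of the 42. In the macrophage-like cluster COL1A1 had 14 knockout and 5 wild type UMIs. The difference between macrophages and other nuclei was not tested.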

How the results depend on the processing

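No paired analysis was possible because each genotype had 1 library, and for the same reason no replicate could be left out. Of 66 recomputed comparison values 45 stayed within the limits set for a change. The 693 higher and 873 lower genes depended most on which nuclei counted. They became 124 and 197 without nuclei carrying 3 or more genes of another type, 362 and 277 with the cluster in place of the rule, 230 and 241 with the rule and the cluster together, and 285 and 384 without nuclei over 3 times the median UMIs, the last 2 settings being chosen after seeing the data. They were 248 and 388 at 50 or more UMIs, and 1185 genes were higher at 10 or more UMIs and 431 with TMM scaling, which shifted all log2 ratios by -0.20. With 2 or more marker genes 558 genes were lower, 46.2% of the nuclei lay in the cluster (67.4% with the rule) and CFTR, at 11.0 CPM over the macrophages of both libraries, stood at 35.2 CPM; it stood at 0 CPM without nuclei of another type and at 3.56 CPM with the cluster in place of the rule. The cluster in place of the rule turned the log2 ratio of the share to 0.19, and gave 341 genes raised over other nuclei, against 130 at a log2 ratio of 3 and 126 at 50 or more UMIs. Changes of sign were common: 11 of 21 list medians without nuclei of another type and 7 of 25 with the rule and cluster, and 26 of 93 named genes with the rule and cluster, 31 of 102 with the cluster in place of the rule and 30 of 129 with 2 or more markers. Among values past 1 in the main analysis, sign changed for sustentacular genes (0.25) and ABCA1 (-0.14) without nuclei of another type, for complement (-0.11) with the rule and cluster, for ciliated genes (-0.87 without the deepest nuclei, -0.081 with the ratio in other nuclei subtracted), and for ANO5 (-0.34, 4 or more markers), CACNA1B (0.063) and TPX2 (-0.062) with 2 or more markers, BACH2 (2.55), FLT3 (-0.051) and FSTL5 (0.72) with the cluster in place of the rule, and FSTL5 (0.59) with both. The complement median rested on 10 genes in the main analysis and on 5 with the rule and cluster. Causes were not tested. With sums of 20 to 100 UMIs, differences under about 1 log2 unit were often within counting error.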

Other observations

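Some genes that were lower in knockout macrophages of the cluster were found in the same wild type nuclei and others were not, a description made after seeing the data. Of 33 wild type nuclei with COLEC12, 24 also had CD200R1, 25 had MERTK, 23 had P2RY12, 19 had TNFRSF11A and 17 had KCNK13. Among the 11 wild type nuclei without COLEC12 3 had CD200R1, 5 MERTK, 6 P2RY12, 6 TNFRSF11A and 7 KCNK13, at a lower median depth (1644 UMIs, beside 2271 UMIs with COLEC12). In the knockout, 14 nuclei had COLEC12, and 2 of them had CD200R1, 4 MERTK and 4 P2RY12, against 4, 10 and 10 of the 29 knockout nuclei without COLEC12. The part of depth in these counts was not tested.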
